A study of Mus musculus with 11 samples.

Results

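The IFIT gene cluster of mouse chromosome 19 was examined in mammary tumors, where 4 genes of the 26283 in the deposited table carry the names chosen, *Ifit1*, *Ifit2*, *Ifit3* and *Ifit3b*. IFIT proteins are induced by interferon and act on RNA inside the cell. IFIT1 holds the 5′ end of capped RNA that lacks a methyl group on its first nucleotide and keeps it from being translated, and human IFIT3 binds IFIT1 and stabilizes it. The genes are switched on by ISGF3, a transcription factor complex that recognizes the interferon-stimulated response element (ISRE) in their promoters, and they are widely used as a readout of type I interferon signaling in tumors.

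Bulk RNA was sequenced from 11 mammary tumors of female C57BL/6 mice at 18 weeks of age, to compare tumors with and without the RNA-binding protein PCBP1. All mice carried MMTV-PyMT, a polyomavirus oncogene under a mammary tumor virus promoter, and MMTV-Cre. The 6 PyMT *Pcbp1*–/– tumors came from mice with both *Pcbp1* alleles floxed (fl/fl), and the 5 PyMT *Pcbp1*+/+ tumors came from mice with unfloxed alleles (wt/wt) and the same Cre. MMTV-Cre acts in mammary epithelium, so other cells of a tumor keep *Pcbp1*, and the sources used here do not say how many tumors came from each animal. In whole tumors, fewer cells that express a gene and less RNA per cell cannot be told apart. Estimated counts summed to between 10543189 and 14092192 per tumor, and CPM are the same counts scaled to a common total.

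The deleted gene was examined first. *Pcbp1* lay between 15.4 and 33.6 CPM in PyMT *Pcbp1*–/– tumors, with a median of 20.9, and between 219 and 271 CPM in PyMT *Pcbp1*+/+ tumors. Every tumor therefore matched its labelled genotype. Markers of mammary luminal epithelium, the labelled tissue, were present in each tumor. The 8 luminal genes summed to between 1220 and 2131 CPM in PyMT *Pcbp1*–/– tumors and between 1478 and 2013 CPM in PyMT *Pcbp1*+/+ tumors, with *Cdh1*, the adhesion protein E-cadherin, the most abundant.

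Before the comparison, a PyMT *Pcbp1*+/+ tumor that stood apart is described. Replicate 5 of that group had the lowest CPM of its group for *Ifit1*, *Ifit2*, *Ifit3* and *Ifit3b*, although its *Pcbp1* level of 259 CPM was among those of its group. It also had the lowest sum in its group for 5 of 8 lists of cell type markers, which were the basal, macrophage, T cell, plasmacytoid dendritic cell and endothelial lists. Fold changes of *Ifit1*, *Ifit2*, *Ifit3* and *Ifit3b* are given with and without this tumor.

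*Ifit1* encodes the protein that binds capped RNA without a methyl group on its first nucleotide. It lies on the plus strand at chr19:34640871-34650009 of GRCm38 (ENSMUSG00000034459.8). In PyMT *Pcbp1*+/+ tumors 1 to 5 it had 86.7, 83.5, 93.7, 75.0 and 21.6 CPM. In PyMT *Pcbp1*–/– tumors it had between 4.95 and 15.6 CPM, with a median of 9.71. The groups did not overlap, and replicate 5 of PyMT *Pcbp1*+/+ lay nearest to the PyMT *Pcbp1*–/– tumors. The mean was 10.3 ± 3.92 CPM (SD, n = 6) against 72.1 ± 29.0 CPM (SD, n = 5). By edgeR's quasi-likelihood test, *Ifit1* fell by 2.80 on the log2 scale, with a standard error (SE) of 0.36 and an adjusted p of 0.0032. Without replicate 5 of PyMT *Pcbp1*+/+ the log2 fold change was -3.02 (edgeR adjusted p = 0.000248).

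*Ifit3* and *Ifit3b* are near copies of each other, and in human cells the single IFIT3 protein joins IFIT1 and IFIT2 in a complex. *Ifit3* lies at chr19:34583531-34588731 on the plus strand (ENSMUSG00000074896.3). Its levels in PyMT *Pcbp1*+/+ tumors 1 to 5 were 79.7, 42.9, 102.6, 72.4 and 14.8 CPM. In PyMT *Pcbp1*–/– tumors they ran from 3.82 to 14.9 CPM, with a median of 8.64. A single pair of tumors made the groups overlap, the highest PyMT *Pcbp1*–/– tumor at 14.92 CPM and PyMT *Pcbp1*+/+ replicate 5 at 14.82 CPM. The mean was 8.87 ± 3.81 CPM (SD, n = 6) against 62.5 ± 34.1 CPM (SD, n = 5), and the log2 fold change was -2.81 (SE 0.44, edgeR adjusted p = 0.00687), or -3.06 without that PyMT *Pcbp1*+/+ tumor (edgeR adjusted p = 0.00102).

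*Ifit3b* lies 3′ of *Ifit3* at chr19:34607970-34613401 on the same strand (ENSMUSG00000062488.9). PyMT *Pcbp1*+/+ tumors 1 to 5 had 46.1, 25.3, 46.9, 37.4 and 9.20 CPM. PyMT *Pcbp1*–/– tumors had between 2.10 and 6.32 CPM, with a median of 3.55. The groups did not overlap, and the gene had the lowest counts of the cluster's 4 named genes, at 28 in the lowest tumor. Its log2 fold change was -3.05 (SE 0.40, edgeR adjusted p = 0.00343), and -3.28 without PyMT *Pcbp1*+/+ replicate 5 (edgeR adjusted p = 0.00038). Of the distinct stretches of 50 bases in *Ifit3b* transcripts of GENCODE vM39, 47.8% also occur in *Ifit3* transcripts, so the division of reads between these copies is uncertain. With the counts of *Ifit3* and *Ifit3b* summed before the test, the log2 fold change was -2.89 (edgeR adjusted p = 0.00512).

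*Ifit2* encodes a relative of IFIT1 that binds AU-rich RNA. It is the first gene of the cluster on the plus strand, at chr19:34550694-34576419 (ENSMUSG00000045932.12). PyMT *Pcbp1*+/+ tumors 1 to 5 had 56.9, 46.9, 48.8, 43.6 and 21.4 CPM. PyMT *Pcbp1*–/– tumors had between 13.8 and 25.8 CPM, with a median of 23.2. The groups overlapped, since only 2 of 6 PyMT *Pcbp1*–/– tumors lay below PyMT *Pcbp1*+/+ replicate 5, while the other 4 PyMT *Pcbp1*+/+ tumors lay above every PyMT *Pcbp1*–/– tumor. The mean was 21.4 ± 4.74 CPM (SD, n = 6) against 43.5 ± 13.3 CPM (SD, n = 5), and the log2 fold change was -1.02 (SE 0.22, edgeR adjusted p = 0.0336). The call was kept without PyMT *Pcbp1*–/– replicate 2 (edgeR adjusted p = 0.042) and without PyMT *Pcbp1*+/+ replicate 5 (log2 fold change -1.18, adjusted p = 0.00461 from edgeR), and it was lost without any other single tumor, at an adjusted p of up to 0.0863.

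**Figure D1:**
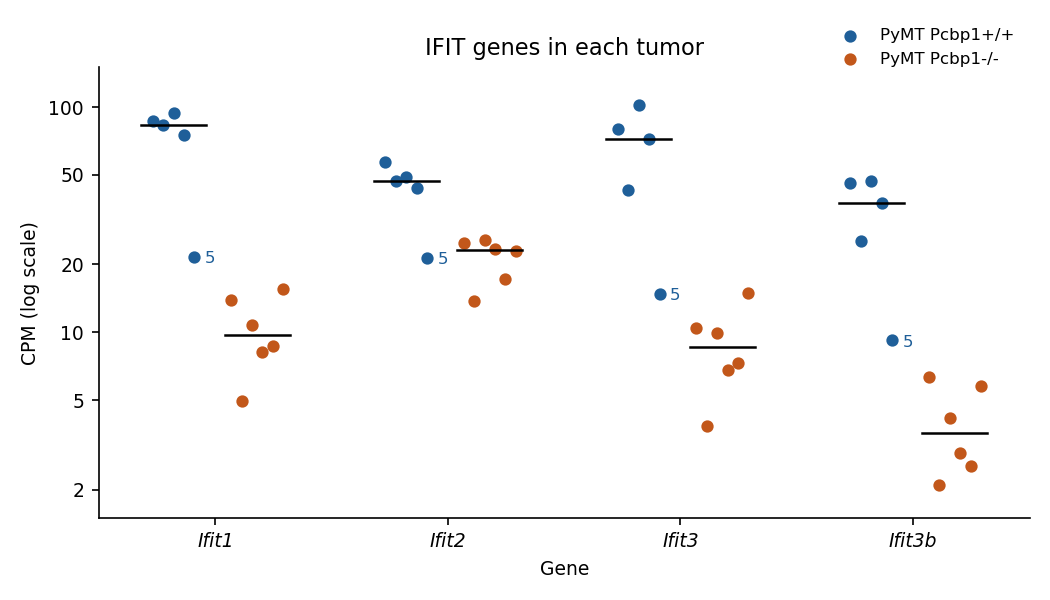
CPM on a log axis for each IFIT gene in each tumor, with points for single tumors, PyMT *Pcbp1*+/+ in blue and PyMT *Pcbp1*–/– in orange, and bars for group medians; PyMT *Pcbp1*+/+ replicate 5 is numbered. *Ifit1* and *Ifit3b* show no overlap between the groups, and the *Ifit2* medians of 46.9 and 23.2 CPM are the closest together.

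All 4 genes passed the filter on low counts, and 4 of 4 fell in PyMT *Pcbp1*–/– tumors past the threshold, an adjusted p under 0.05, where 1.66% of the 19232 genes tested were (319 genes, edgeR). For 2 of 4, *Ifit1* and *Ifit3b*, every PyMT *Pcbp1*–/– tumor lay below every PyMT *Pcbp1*+/+ tumor, which held for 2.01% of the genes tested. Without PyMT *Pcbp1*+/+ replicate 5, the tumor behind the overlap of the other genes, this held for 4 of 4 and for 3.62% of the genes tested. The tumor was left out because of that overlap, so 4 of 4 follows from the choice and cannot be compared with 3.62%. The median log2 fold change was -2.80 over the 4 genes and 0.00 over all genes tested.

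The 4 genes did not fall by the same amount. Ratios between genes within a tumor do not depend on the depth of its library, and 6 pairs of genes were compared in this way, as log2 ratios of CPM + 0.5. The *Ifit1* to *Ifit2* ratio ran from 0.01 to 0.93 in PyMT *Pcbp1*+/+ tumors and from -1.47 to -0.54 in PyMT *Pcbp1*–/– tumors, without overlap. The mean difference was -1.70, so *Ifit1* fell further than *Ifit2* (exact permutation p = 0.00433, two-sided, and 0.00866 after Benjamini-Hochberg adjustment for 6 pairs).

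*Ifit3* and *Ifit3b* differed from *Ifit2* in the same way. The *Ifit2* to *Ifit3* ratio rose from -0.32 ± 0.64 (SD, n = 5) with *Pcbp1* to 1.30 ± 0.41 (SD, n = 6) without it, a difference of 1.62. The *Ifit2* to *Ifit3b* ratio was 0.53 ± 0.48 (SD, n = 5) and 2.35 ± 0.37 (SD, n = 6), a difference of 1.82. Neither ratio overlapped between the groups, and both had p = 0.00433 and adjusted p = 0.00866 in the same exact permutation test. For all 3 ratios with *Ifit2*, this p is the smallest that 6 tumors against 5 allow. PyMT *Pcbp1*+/+ replicate 5 was again the tumor of its group nearest to the PyMT *Pcbp1*–/– tumors in these 3 ratios.

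Among *Ifit1*, *Ifit3* and *Ifit3b*, no difference between falls passed the test. The log2 ratio changed by -0.08 for *Ifit1* to *Ifit3* (adjusted p = 0.706), by 0.13 for *Ifit1* to *Ifit3b* (adjusted p = 0.525) and by 0.20 for *Ifit3* to *Ifit3b* (adjusted p = 0.318), all from the exact permutation test over 6 pairs. The *Ifit1* to *Ifit3b* change was 0.26 without PyMT *Pcbp1*+/+ replicate 2 (exact permutation, adjusted p = 0.0714), and 0.04 with 1 added to CPM and 0.20 with 0.1 added. The groups overlapped in each of these ratios. Since the division of reads between *Ifit3* and *Ifit3b* is uncertain, so is the ratio of these 2 genes. The *Ifit1* to *Ifit3* ratio had an SD of 0.44 (n = 5) in PyMT *Pcbp1*+/+ and of 0.13 (n = 6) in PyMT *Pcbp1*–/– tumors.

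**Figure D2:**
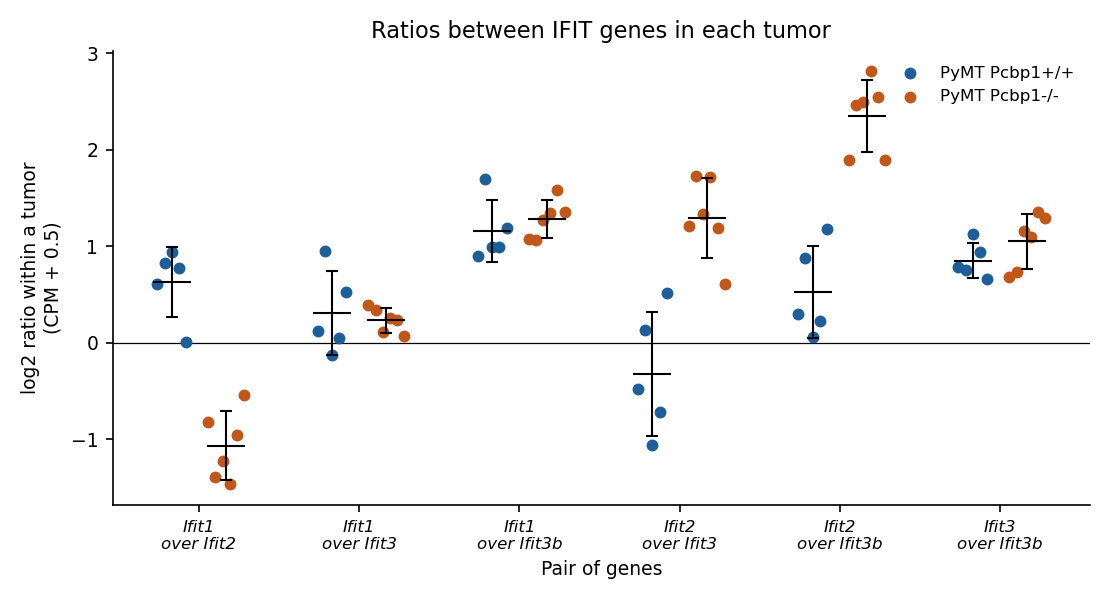
Log2 ratio of CPM + 0.5 between each pair of IFIT genes in each tumor, PyMT *Pcbp1*+/+ in blue and PyMT *Pcbp1*–/– in orange, with horizontal marks for group means and error bars for the SD. The 3 ratios that include *Ifit2* do not overlap between the groups, and the other 3 do.

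The make-up of the cluster's RNA differed accordingly. Of the summed CPM of the 4 genes, *Ifit2* made up 22.5 ± 5.86% (SD, n = 5) where *Pcbp1* was intact and 49.2 ± 6.87% (SD, n = 6) where it was deleted. *Ifit1* made up 34.3 ± 4.35% (SD, n = 5) and 22.8 ± 2.77% (SD, n = 6). The sum itself ran from 67.1 to 292 CPM in PyMT *Pcbp1*+/+ tumors and from 24.7 to 59.3 CPM in PyMT *Pcbp1*–/– tumors. These shares restate the ratios above and were not tested again.

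Levels of different genes were compared per kilobase of exon, with lengths from GENCODE vM39, another annotation than that of the counts. In PyMT *Pcbp1*+/+ tumors the order was *Ifit3* at 21.7 ± 11.9, *Ifit3b* at 16.1 ± 7.78, *Ifit1* at 9.72 ± 3.91 and *Ifit2* at 7.37 ± 2.25 CPM per kilobase (SD, n = 5), and each level differed from the next by less than the larger SD of the pair. In PyMT *Pcbp1*–/– tumors *Ifit2* came first at 3.62 ± 0.802, before *Ifit3* at 3.08 ± 1.32, *Ifit3b* at 1.95 ± 0.863 and *Ifit1* at 1.39 ± 0.528 CPM per kilobase (SD, n = 6). There, too, neighbors in the order differed by less than the larger SD. The order depends on the exon lengths taken, 7421 bases for *Ifit1* and 5905 for *Ifit2*, whereas the differences in ratio between the groups do not.

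The cluster also holds *Ifit1bl1* and *Ifit1bl2*, relatives of *Ifit1* on the minus strand that were expressed at low levels. *Ifit1bl1* (chr19:34592888-34601968) had 1.64, 5.79, 2.19, 1.18 and 0.625 CPM in PyMT *Pcbp1*+/+ tumors 1 to 5. In PyMT *Pcbp1*–/– tumors it had between 0.450 and 1.24 CPM, with a median of 0.777. The groups overlapped, and the log2 fold change of -1.48 did not pass the test (SE 0.50, edgeR adjusted p = 0.139). Much of it came from PyMT *Pcbp1*+/+ replicate 2, without which it was -0.81 (edgeR adjusted p = 0.273), and limma on log2(CPM + 1) gave -0.70. *Ifit1bl2* (chr19:34617049-34640743) was below the filter on low counts, with between 0.342 and 1.07 CPM in PyMT *Pcbp1*–/– and between 0.664 and 2.45 CPM in PyMT *Pcbp1*+/+ tumors. Its annotated start lies 127 bases from that of *Ifit1*, on the opposite strand.

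Genes beside the cluster were examined to see where along the chromosome the difference lay. Of 10 neighbors tested within 500 kb of the cluster, edgeR called 0 lower (1.66% of all genes) and 1 higher (0.608%). At an unadjusted p under 0.05, 0 were lower and 2 higher, a threshold for which the share over all genes is not given here. DESeq2 called 0 neighbors lower and 1 higher, against 700 lower and 476 higher among the 20614 genes it tested. With 10 genes, 0 lower is near the share over all genes. On one side, *Lipa*, the lysosomal acid lipase gene, lies 23.2 kb from *Ifit2* and averaged 203 ± 53.1 CPM (SD, n = 5) in PyMT *Pcbp1*+/+ against 166 ± 46.9 CPM (SD, n = 6), with a log2 fold change of -0.28 (edgeR adjusted p = 0.504). On the other, *Slc16a12*, a transporter gene, lies 18.4 kb from *Ifit1*, with a log2 fold change of -0.53 (SE 0.39, edgeR adjusted p = 0.494), which was -0.06 without PyMT *Pcbp1*+/+ replicate 2 and -0.77 without replicate 5.

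*Ch25h*, which encodes the interferon-inducible cholesterol 25-hydroxylase, lies 75.6 kb from the cluster and had a log2 fold change of 0.31 (SE 0.29, edgeR adjusted p = 0.606). *Pank1*, a pantothenate kinase gene of coenzyme A synthesis 161 kb away, was the neighbor that passed edgeR's test, and in the other direction. It averaged 12.8 ± 1.63 CPM (SD, n = 6) in PyMT *Pcbp1*–/– against 8.44 ± 1.29 CPM (SD, n = 5), with a log2 fold change of 0.60 (SE 0.13, edgeR adjusted p = 0.0376), where 0.608% of all genes tested were higher. The call was kept in 3 of 11 settings with a tumor left out, without PyMT *Pcbp1*–/– replicate 1 or 2 or PyMT *Pcbp1*+/+ replicate 2, and its adjusted p reached 0.0917 without another tumor. *Kif20b*, a kinesin gene, had a log2 fold change of 0.41 (edgeR adjusted p = 0.296) and was called higher by limma-voom alone (0.60, adjusted p = 0.0374). The median log2 fold change of the 10 neighbors was 0.22.

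**Figure D3:**
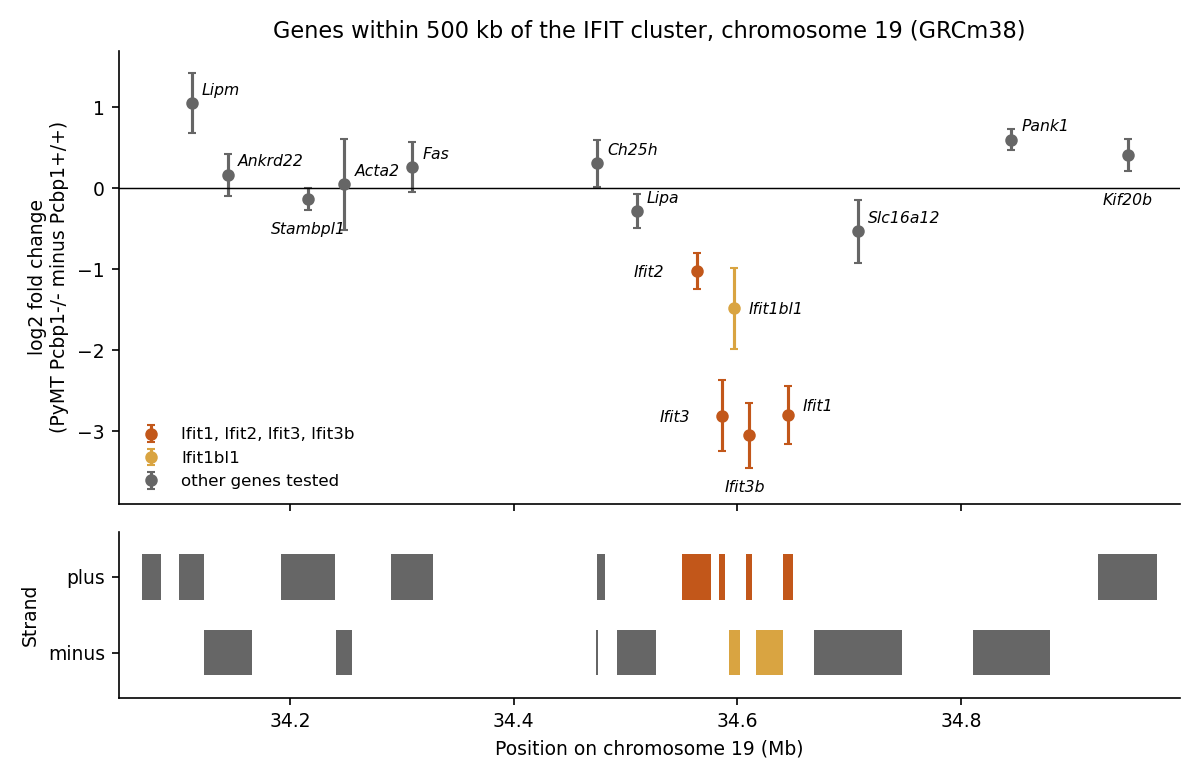
Upper panel, log2 fold change with its standard error for each gene tested within 500 kb of the IFIT cluster, against position on chromosome 19 of GRCm38; lower panel, the span and strand of each gene there. The 4 IFIT genes, in dark orange, lie between -3.05 and -1.02, while the neighbors lie between -0.53 and 1.05.

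Promoters were read from RefSeq windows of GRCm38.p6, which run from 250 bases before to 50 bases after a transcript start, for the features shared by genes that fell together. All 4 genes and both relatives had a window. The core of the ISRE was searched as GAAANNGAAA on either strand, and 3.44% of 32851 windows held it, 0.225% more than once. The windows of *Ifit1*, *Ifit3* and *Ifit3b* each held 2 matches. Counted from the transcript start, they begin at bases -104 and -85 in *Ifit1*, at -156 and -122 in *Ifit3* and at -188 and -154 in *Ifit3b*. The stretches with these matches are shown 5′ to 3′ on the strand of the gene, with the matches in capitals, at chr19:34640765-34640833 for *Ifit1*, chr19:34583353-34583436 for *Ifit3*, chr19:34607749-34607832 for *Ifit3b* and, on the minus strand, chr19:34602043-34602092 for *Ifit1bl1*.
Ifit1: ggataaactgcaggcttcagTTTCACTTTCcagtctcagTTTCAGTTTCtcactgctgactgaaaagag
Ifit3: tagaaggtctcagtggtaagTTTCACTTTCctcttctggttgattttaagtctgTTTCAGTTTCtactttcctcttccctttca
Ifit3b: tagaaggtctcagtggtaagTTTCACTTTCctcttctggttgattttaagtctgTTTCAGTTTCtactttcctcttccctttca
Ifit1bl1: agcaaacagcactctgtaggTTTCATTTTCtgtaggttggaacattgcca

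The stretches of *Ifit3* and *Ifit3b* are identical, and their windows matched at 258 of 260 aligned bases. Both matches of *Ifit1* also lie in a window of *Ifit1bl2*, read on the other strand, because these genes start close together. The other window of *Ifit1bl2*, at transcript start 34629811, held no match. *Ifit1bl1* had 1 match in each of its 2 windows. Neither of the 2 windows of *Ifit2*, at transcript starts 34550694 and 34551088, held the core. This says only that the letters are not in these windows. The transcripts of *Ifit2* in GENCODE vM39 begin at 7 places spread over 19202 bases, whereas those of *Ifit3* begin at 1. Each window covers 300 bases, and which of the 7 places lie in the windows of *Ifit2* was not examined. A match is a description of the sequence, and binding was not measured.

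Other steps of the pathway were described from lists. Among 20 genes for type I and III interferons, *Ifnk*, the epithelial interferon kappa, was tested, at 1.40 CPM in PyMT *Pcbp1*–/– and 1.56 CPM in PyMT *Pcbp1*+/+ tumors (log2 fold change -0.16, adjusted p = 0.798 from edgeR). *Ifnz* was below the filter on low counts, and the other 18 were not analysed here.

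Of 9 receptor and kinase genes, 1 was lower and 0 were higher, where 1.66% of all genes tested were lower and 0.608% higher, with a median log2 fold change of -0.01. *Ifnar1* and *Ifnar2*, the subunits of the type I interferon receptor, had log2 fold changes of 0.09 (adjusted p = 0.737) and -0.02 (adjusted p = 0.958, both from edgeR). The gene called was *Ifnlr1*, of the type III interferon receptor, at -0.58 (SE 0.13, edgeR adjusted p = 0.0391), a call kept in 4 of 11 settings with a tumor left out, without PyMT *Pcbp1*–/– replicate 1 or 2 or PyMT *Pcbp1*+/+ replicate 3 or 5, and otherwise lost at an adjusted p of up to 0.094. With all tumors it was lost with library size in place of TMM (edgeR adjusted p = 0.0737), without the filter on low counts (0.0514) and with limma on log2(CPM + 1) (0.11) or log2(CPM + 0.1) (0.126). The kinase gene *Tyk2* had -0.44 (edgeR adjusted p = 0.0794) and passed without PyMT *Pcbp1*+/+ replicate 1 (adjusted p = 0.039), and with all tumors by DESeq2 (0.028) and limma-voom (0.0362).

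Of 9 factors that act on interferon-induced genes, 3 were lower and 0 were higher (1.66% and 0.608% of all genes), with a median of -0.29. *Irf7*, which amplifies type I interferon, had 15.9 CPM in PyMT *Pcbp1*–/– and 118 CPM in PyMT *Pcbp1*+/+ tumors on average. Its log2 fold change was -2.89 (SE 0.31, edgeR adjusted p = 0.00194). *Stat2* and *Irf9*, which encode parts of ISGF3, had -1.42 (adjusted p = 0.0112) and -0.85 (adjusted p = 0.0254, both from edgeR). The call of *Irf9* was lost without PyMT *Pcbp1*–/– replicate 3, 4 or 5 or PyMT *Pcbp1*+/+ replicate 1, 3 or 4, at an adjusted p of up to 0.0689.

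Of 14 genes for nucleic acid sensing, 4 were lower and 0 were higher (1.66% and 0.608% of all genes), with a median of -0.24. They were *Dhx58* (LGP2) at -2.28 (adjusted p = 0.00194), *Ddx58* (RIG-I) at -0.98 (adjusted p = 0.00618), *Trex1*, a DNA exonuclease, at -0.71 (adjusted p = 0.0301) and *Ifih1* (MDA5) at -0.78 (adjusted p = 0.0307, all from edgeR). *Mb21d1*, which encodes cGAS, had 0.13 (adjusted p = 0.743) and *Tmem173*, which encodes STING, -0.29 (adjusted p = 0.499, both from edgeR). With a tumor left out, *Dhx58* and *Ddx58* kept their calls in 11 of 11 settings, *Ifih1* in 4 and *Trex1* in 3, at an adjusted p of up to 0.0895 and 0.0711. *Ifih1* kept its call without PyMT *Pcbp1*–/– replicate 2 or 6 or PyMT *Pcbp1*+/+ replicate 2 or 5, and *Trex1* without PyMT *Pcbp1*–/– replicate 2 or PyMT *Pcbp1*+/+ replicate 2 or 5.

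Of 7 inhibitors of interferon signaling, 1 was lower and 0 were higher (1.66% and 0.608% of all genes), with a median of -0.23. *Usp18*, which binds the type I receptor and removes ISG15 from proteins, had -1.63 (SE 0.34, edgeR adjusted p = 0.0309). It kept its call in 4 of 11 settings with a tumor left out, without PyMT *Pcbp1*–/– replicate 2 or 6 or PyMT *Pcbp1*+/+ replicate 2 or 5, and its adjusted p otherwise reached 0.0809.

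The RNA features that IFIT proteins read were followed through enzymes that act on the cap or the 5′ end. Of 9 genes for cap and 5′ end enzymes, 1 was lower and 0 were higher (1.66% and 0.608% of all genes), with a median of 0.01. It was *Cmtr1*, which methylates the first nucleotide after the cap and so makes the mark that IFIT1 does not bind, with 30.4 CPM in PyMT *Pcbp1*–/– and 41.4 CPM in PyMT *Pcbp1*+/+ tumors on average. The log2 fold change was -0.45 (SE 0.10, edgeR adjusted p = 0.0439). With a tumor left out it passed in 2 of 11 settings, without PyMT *Pcbp1*–/– replicate 5 or PyMT *Pcbp1*+/+ replicate 1, and reached an adjusted p of 0.0934. Of 14 subunits of eIF3, the translation factor that IFIT1 and IFIT2 bind, 0 were called in either direction by edgeR, with a median of 0.01. The shares over all genes were 1.66% lower and 0.608% higher. DESeq2 called 1 subunit lower, against 700 of the 20614 genes it tested. At an unadjusted p under 0.05 in edgeR 1 was lower, a threshold for which the share over all genes is not given here.

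Genes with the most similar pattern were found by the root mean square difference, in log2 CPM units, between values centered on each gene's mean over 11 tumors. The genes nearest to *Ifit1* were *Isg15*, a ubiquitin-like interferon-induced modifier (0.14), *Oasl2* (0.21), *Irf7* (0.26), *Ifit3b* (0.26) and *Ifit3* (0.28), against a median over all genes of 1.53. Those nearest to *Ifit3* were *Ifit3b*, *Ifit1* and the oligoadenylate synthetase genes *Oas2*, *Oasl2* and *Oas3*, and those nearest to *Ifit3b* were *Ifit1*, *Ifit3*, *Irf7*, *Oasl2* and *Isg15*. The part of shared sequence in the similarity of *Ifit3* and *Ifit3b* was not tested. Log2 fold changes of the named genes outside the cluster lay between -2.92 for *Oas2* and -2.56 for *Oasl2*.

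The genes nearest to *Ifit2* were *Parp12*, an interferon-induced ADP-ribosyltransferase (0.18), *Irf9* (0.20), *Zcchc3*, a nucleic acid sensing cofactor (0.21), *Lgals9*, the galectin-9 gene (0.23), and *Gpr137* (0.24), against a median of 0.69. Their log2 fold changes lay between -1.12 for *Zcchc3* and -0.82 for *Gpr137*, and *Lgals9* did not pass the test (edgeR adjusted p = 0.0736). This measure grows with the gap between fold changes, so the difference of 0.92 between *Ifit1* and *Ifit2* largely restates their ratio. *Lgals9* passed without PyMT *Pcbp1*+/+ replicate 5 (log2 fold change -0.98, edgeR adjusted p = 0.0235), and with all tumors by DESeq2 (0.0163) and limma-voom (0.0223). With a tumor left out, *Zcchc3* lost its call without PyMT *Pcbp1*+/+ replicate 1, 3 or 4, *Gpr137* without these or PyMT *Pcbp1*–/– replicate 1, 3 or 5, and *Parp12* without these PyMT *Pcbp1*+/+ tumors or PyMT *Pcbp1*–/– replicate 3, 4, 5 or 6.

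Markers of other cell types were set beside these values. Of 50 marker genes tested in 8 lists, 0 were called in either direction by edgeR or by DESeq2, a share near that over all genes (1.66% lower and 0.608% higher by edgeR), and at an unadjusted p under 0.05, 1 was lower and 0 were higher. The 8 macrophage genes, of which *C1qb* was the most abundant, summed to between 171 and 359 CPM in PyMT *Pcbp1*–/– and between 126 and 281 CPM in PyMT *Pcbp1*+/+ tumors. The 8 T cell genes summed to between 3.52 and 8.45 CPM in PyMT *Pcbp1*–/– and between 2.95 and 9.29 CPM in PyMT *Pcbp1*+/+ tumors. Of these 8, only 3 passed the filter on low counts, and the most abundant, *Cd8a*, averaged 2.35 CPM over all tumors. At such levels a difference in T cells could hardly be detected, so the absence of calls says little about them.

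Plasmacytoid dendritic cells are strong producers of type I interferon. Of their 5 markers analysed, *Tcf4*, which other cells express too, held most of a sum of 97.7 to 177 CPM in PyMT *Pcbp1*–/– and 101 to 204 CPM in PyMT *Pcbp1*+/+ tumors. *Siglech*, the more specific marker, was below the filter, at 0.709 CPM and 0.938 CPM on average. Endothelial genes, led by *Cdh5*, summed to 55.0 to 93.0 CPM in PyMT *Pcbp1*–/– and 55.4 to 97.0 CPM in PyMT *Pcbp1*+/+ tumors, and fibroblast genes, led by *Col1a1*, to 404 to 1004 and 404 to 756 CPM. Basal genes, led by *Oxtr*, summed to 123 to 400 and 94.0 to 831 CPM, and adipocyte genes, led by *Pnpla2*, to 40.9 to 75.0 and 41.4 to 150 CPM. On average *Pnpla2* alone held 42.0 of 56.6 CPM in PyMT *Pcbp1*–/– and 47.5 of 73.6 CPM in PyMT *Pcbp1*+/+ tumors, so the adipocyte sum mostly reports this gene. Of 7 basal genes, 4 had a negative and 3 a positive log2 fold change (median -0.04). Of 8 macrophage genes, 8 had a positive log2 fold change (median 0.21), as had 6 of 7 fibroblast genes (median 0.29), while 7 of 7 adipocyte genes (median -0.80) and 7 of 7 endothelial genes (median -0.15) had a negative one, the direction of the IFIT genes. The adipocyte sum of 150 CPM was that of PyMT *Pcbp1*+/+ replicate 3, and the rest of its group, at 41.4 to 63.7 CPM, lay within the range of the PyMT *Pcbp1*–/– tumors. The part of these cells in the IFIT differences was not tested. The groups overlapped in every list, and no marker analysed was at 0 in all tumors. In PyMT *Pcbp1*+/+ replicate 5, the tumor with low IFIT levels, the macrophage genes summed to 126 CPM, the basal genes to 94.0 CPM, the T cell genes to 2.95 CPM, the plasmacytoid dendritic cell genes to 101 CPM and the endothelial genes to 55.4 CPM. The part of these cells in its IFIT levels was not tested.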

How the data were processed

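The authors extracted RNA with Trizol, made poly(A)-enriched, stranded libraries, sequenced paired ends and aligned them to GRCm38; the submitters' processing notes name FastQC, Bowtie2 and Partek. The annotation version and the counting method are not given in the sources used here. The labels give 1 batch. The deposited tables hold estimated counts per gene, not normalized, and CPM values, in which the authors divided each count by the sum of its column.

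Estimated counts were rounded to whole numbers and tested with edgeR 4.0.16 (R 4.3.3), with TMM factors, edgeR's filter on low counts, the quasi-likelihood test with the genotype as the only term, and Benjamini-Hochberg adjustment over the 19232 genes tested. Calls were made at an adjusted p under 0.05. Standard errors were obtained by dividing each fold change by the root of its F statistic. The fit was tested on simulated data. Ratios between genes were compared with exact permutation tests over all 462 assignments of tumors (scipy 1.17.1), doubling the smaller tail. Similar patterns used TMM log2 CPM with a prior count of 2. Gene ends were taken 1 base before the deposited stop position. Promoter windows were aligned with Biopython 1.88. GENCODE vM39, made for another genome build, gave lengths and shared sequence by Ensembl identifier and no coordinates.

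A gene at 3 counts lay between 0.213 and 0.285 CPM, which covers counting error only. P-values measure the spread between these tumors. Named genes were the 4 IFIT genes, other genes named *Ifit* and a digit, *Pcbp1*, genes within 500 kb, the 5 genes most similar to each IFIT gene, and up to 4 called genes of each list with the smallest p, besides the defining genes of a step and single markers of cell types. The genes and lists were chosen with earlier results of these data known. Fold changes and counts of calls were also computed with upper-quartile factors or library size in place of TMM, with DESeq2 1.42.0, with limma 3.58.1 (voom with sample quality weights, or log2 CPM with 1 or 0.1 added), without structural RNAs, under other filters on low counts, with *Ifit3* and *Ifit3b* summed, with replicate numbers as a block, and with each tumor left out. Ratio differences were recomputed with other pseudocounts, the block, the summed genes and each tumor left out, and overlaps on TMM library sizes and with each tumor left out. Shares, levels per kilobase, similar patterns and marker sums were computed in 1 way.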

Additional observations from a re-analysis of the deposited data

Results flagged for a closer look

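Outlying tumors were sought among 42 sets of values, each a gene, ratio or marker sum in a genotype. A tumor was judged by its gap to the nearest tumor over the range of its set. There were 3, where 1 in 20 of the sets would be 2.1. The sets share tumors and genes, so 2.1 is a rough guide and not a tested expectation. *Ifit1* was low in PyMT *Pcbp1*+/+ replicate 5, at 21.6 CPM with the nearest tumor at 75.0 CPM. The summed CPM of basal markers was low in PyMT *Pcbp1*–/– replicate 2, at 123 CPM with the nearest tumor at 301 CPM. The summed CPM of adipocyte markers was high in PyMT *Pcbp1*+/+ replicate 3, at 150 CPM with the nearest tumor at 63.7 CPM.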

How the results depend on the processing

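Over 22 alternatives the log2 fold change stayed between -3.02 and -2.61 for *Ifit1* and between -3.06 and -2.50 for *Ifit3*, and over 21 between -3.28 and -2.65 for *Ifit3b*, past the threshold in each. *Ifit2* had an adjusted p above 0.05 with limma on log2(CPM + 1) (log2 fold change -0.96, adjusted p = 0.068) and on log2(CPM + 0.1) (-0.99, adjusted p = 0.0843), and without 9 of the 11 tumors taken singly. Over all 11 settings with a tumor left out, the 2 that passed included, it ran from -1.18 to -0.91 and its adjusted p from 0.00461 to 0.0863. Those settings have fewer tumors, and the cause in the limma settings was not tested. With all tumors kept, limma on both log2 scales also lost the calls of *Parp12*, *Ifih1*, *Usp18* and *Ifnlr1*, and on log2(CPM + 0.1) those of *Pank1*, *Irf9* and *Cmtr1*, at adjusted p from 0.0521 to 0.126. Without a filter on low counts *Ifnlr1* and *Cmtr1* were lost (0.0514 and 0.0657), and with library size only *Ifnlr1* (0.0737), causes not tested. Calls of lower and of higher genes numbered 700 and 476 with DESeq2, 1190 and 968 with limma-voom and sample quality weights, and 191 and 69 with limma on log2(CPM + 0.1), causes not tested; without single tumors they ran from 144 (PyMT *Pcbp1*–/– replicate 3) to 389 and from 41 (PyMT *Pcbp1*+/+ replicate 3) to 187. Median log2 fold changes over all genes moved to at most 0.0105. IFIT genes without overlap numbered from 2 to 4 without single tumors, 4 without PyMT *Pcbp1*+/+ replicate 5, and 3 on TMM library sizes. The *Ifit1* to *Ifit3* difference changed sign with *Ifit3* and *Ifit3b* summed (0.04) and ran from -0.18 to 0.0865 without single tumors, never past the threshold (cause not tested); the 3 differences that include *Ifit2* kept their direction and passed in all settings but the block. *Acta2*, among the neighbors, had -0.0003 with library size only and from -0.21 to 0.82 without single tumors, and *Ifnar2* had 0.0379 with limma-voom, 0.0109 and 0.0123 with limma on log2(CPM + 1) and log2(CPM + 0.1), 0.0317 with the block, and from -0.13 to 0.14 without single tumors (causes not tested); neither was called in any setting. Tumors with the same replicate number share only a number. Their deviations from the group means correlated at 0.1338, 0.0867, -0.079, -0.1442 and 0.2925, and not every tumor correlated best with its own number. With the replicate block in 10 tumors, 118 genes were lower and 42 higher, *Ifit2* was at -1.02 (adjusted p = 0.0566), 11 other named genes called without the block were not called (*Stat2* at 0.0564, *Ddx58* at 0.0551, *Pank1* at 0.123, *Parp12*, *Zcchc3*, *Gpr137*, *Ifnlr1*, *Usp18*, *Ifih1*, *Trex1* and *Cmtr1*), and the differences were -1.80 for *Ifit1* to *Ifit2*, 1.76 for *Ifit2* to *Ifit3* and 1.91 for *Ifit2* to *Ifit3b*, where the smallest exact p possible is 0.0625. Depth limits *Ifit1bl1* and *Ifit1bl2*, with as few as 6 and 4 counts in a tumor.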
